A study of Caenorhabditis elegans with 4 samples.

Results

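The small RNA of germline-less glp-1(e2144) worms was compared with that of WT worms, both grown at 25 °C and collected at day 0, the first day of adulthood. WT was the N2 Bristol isolate. glp-1(e2144) III, strain CF1903, carries a temperature-sensitive allele of a Notch receptor. A further pair of libraries from 20 °C, also day 0, was used to show how far other adult libraries lie from these. The same pair served to name the scarcer strand of each hairpin where strand use was compared. ALG-1/OE, strain CT20, carries zaIs5 with alg-1p::GFP::alg-1, so the Argonaute was driven by its own promoter. Its ctrl, strain PE255, carries feIs5 with sur-5p::luciferase::GFP, and both transgenic strains also carry the rol-6(su1006) marker. Each of the 4 libraries was made from a pool of whole worms, and there was 1 library per strain, so no error between pools or library preparations can be given and no difference was tested. Intervals below are 95% intervals of counting error alone. At 20 °C versus 25 °C, strain and temperature cannot be told apart.

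All 434 mature miRNA names listed for the series were taken as the members, 1 row per name. In the compared pair, 262 had at least 1 read and 199 had reads in both libraries. WT had 211140 reads on mature miRNAs and glp-1(e2144) had 536907, against 238172 in ALG-1/OE and 175048 in ctrl, so values were expressed as shares, as RPM, reads in 1000000 miRNA reads of the library. A share cannot show a change common to all miRNAs. Ratios were counted for the 134 strands with a mean share of at least 50 RPM over the pair. These strands held 99.8% of the miRNA reads in WT and 99.9% in glp-1(e2144), and a strand was called higher or lower at 2-fold, a log2 ratio of 1 in size. A strand scarce in 1 library could pass the mean through the other library alone, which favours a call.

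A miRNA is cut from a hairpin precursor that can yield a strand from its 5p arm and a strand from its 3p arm. An Argonaute protein such as ALG-1 keeps 1 of them, and the retained strand pairs with messenger RNAs mainly through its seed, the short stretch after the first base. Strands of different hairpins that share a seed form a family, and neighbouring hairpins are often cut from 1 transcript. GLP-1 signalling keeps germ cells dividing, so worms raised with the mutant receptor at the restrictive temperature make almost no germ cells, oocytes or embryos, and they live longer than WT. WT hermaphrodites of this age hold a germline with oocytes and young embryos. The miR-35 to miR-42 family is known to be supplied from the mother's germline and to be needed for embryonic development. The sequences of the strands were not used here, and families were formed by name from miRNAs known to share a seed. Both arms of each such hairpin were placed in its family, so a family here also holds strands without the shared seed.

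Germline-less worms lacked nearly all of the miR-35 family, together with a group of scarcer strands from other hairpins. Of the 134 counted strands, 28 (20.9%) were lower in glp-1(e2144) than in WT and 9 (6.72%) were higher, while 97 lay within 2-fold. Of the 28, 11 belonged to the miR-35 family and 17 came from 16 other hairpins. Over the 123 counted strands outside the family, 13.8% were lower and 7.32% higher. The interval of the ratio lay wholly past 2-fold for 25 of the 28 lower strands, but only for 2 of the 9 higher ones, miR-58a-5p and miR-246-3p. The median log2 ratio was 0.10, and it was 0.18 without the family. The loss of the family from the total by itself raised the share of every other miRNA by 0.17 on the log2 scale, so ratios between 0 and 0.17 changed sign when the family was left out of the total. With that total 6 of the 9 higher strands and 28 of the 28 lower strands kept their call. For the same 134 strands, ctrl differed from WT by 2-fold upwards in 7 (5.22%) and downwards in 11 (8.21%).

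**Figure D1:**
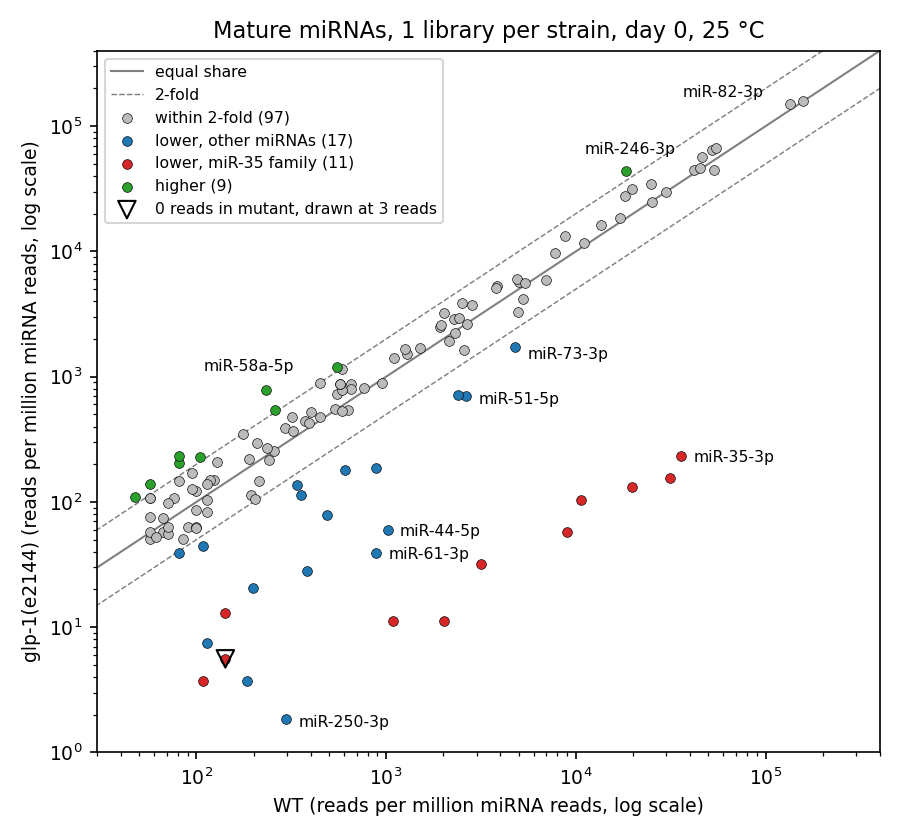
Share of 134 mature miRNAs in the WT library (x axis) and the glp-1(e2144) library (y axis), both in RPM on log scales, 1 point per strand, with a solid line at equal share and dashed lines at 2-fold. The 97 strands within 2-fold follow the solid line up to miR-82-3p, the 11 lower strands of the miR-35 family and 17 other lower strands lie under the dashed lines, and 9 strands lie above them.

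The position of glp-1(e2144) against all 3 other libraries was used to see which calls rest on WT alone. The calls were made against WT, so for called strands only ALG-1/OE and ctrl add to this. The glp-1(e2144) share was below those of WT, ALG-1/OE and ctrl for 42 strands (31.3%) and above all 3 for 41 (30.6%). Of the 28 lower strands, 27 lay below all 3 libraries, 22 of them by 2-fold from the nearest one. The exception was miR-239a-3p, at 80.5 RPM in WT, 33.6 in ALG-1/OE, 22.9 in ctrl and 39.1 in glp-1(e2144), where WT was the high library. Of the 9 higher strands, 6 lay above all 3 libraries and only miR-58a-5p did so by 2-fold. For miR-240-3p, miR-259-3p and miR-47-5p the glp-1(e2144) share lay inside the range of the others.

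The miR-35 family accounted for 11.3% of miRNA reads in WT, 8.78% in ALG-1/OE and 6.51% in ctrl, but for only 0.076% in glp-1(e2144), where 406 of 536907 reads remained. The family was thus 150-fold lower in the mutant, a log2 ratio of -7.23 (-7.37 to -7.09). The sample label gives the genotype, and the series text calls the strain germline-less. Of the miRNAs listed here, this maternally supplied family is the one that bears on that description. In whole worms, fewer cells of a type and less RNA per cell cannot be told apart. The family comprises 16 annotated strands from 8 hairpins, of which 11 were counted, and all 11 were called lower, with a median log2 ratio of -6.68 against 0.10 over the 134. Of these, miR-36-5p, miR-37-5p, miR-38-3p, miR-39-5p, miR-41-3p and miR-42-5p were under 50 RPM in the mutant. They were counted only through their share in WT, so their calls are not independent of the filter. Of the 16 strands, 15 lay below all 3 other libraries. The exception was miR-40-5p, which had 4 reads in WT and 0 in the other 3.

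mir-35 to mir-41 lie on the plus strand of chromosome II at 11537608-11538404 (WBcel235), within an intron of Y62F5A.9 and antisense to it, and mir-42 lies apart at 11889811-11889905, next to mir-43 and mir-44. Strands of the large cluster are the most abundant of the family. miR-35-3p stood at 35900 RPM in WT, 25658 in ALG-1/OE and 19915 in ctrl but at 233 in glp-1(e2144). miR-39-3p had 6611 reads in WT, 6472 in ALG-1/OE, 2939 in ctrl and 84 in glp-1(e2144), and its share was 200-fold lower in the mutant, a log2 ratio of -7.64 (-7.97 to -7.33). miR-37-3p stood at 19660 RPM in WT and 132 in the mutant, a log2 ratio of -7.22. The mutant library was the low one for each of these, and the other 3 did not come near it.

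The 3p strands of mir-35 to mir-40 were close to one another in their ratios. miR-38-3p, with 427 reads in WT and 6 in the mutant, had a log2 ratio of -7.50 (-8.95 to -6.37), and miR-36-3p, with 1896 and 31 reads, one of -7.28 (-7.84 to -6.77). miR-40-3p was the least depleted of the abundant strands, at 10709 RPM in WT and 104 in the mutant, with a log2 ratio of -6.68 (-7.09 to -6.30) whose interval did not meet that of miR-39-3p. Accordingly, the make-up of the family differed between the libraries. miR-40-3p was 9.44% of the family's reads in WT (9.07–9.82), 9.84% in ALG-1/OE and 12.04% in ctrl, against 13.8% of the 406 reads in glp-1(e2144) (10.6–17.5). miR-39-3p was 27.6% of the family in WT (27.0–28.2), 31.0% in ALG-1/OE and 25.8% in ctrl, against 20.7% in the mutant (16.9–25.0). miR-35-3p kept its place, with 31.6% of the family in WT and 30.8% in the mutant.

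The 5p strands of these hairpins were scarce and lower as well. miR-39-5p had 672 reads in WT and 17 in the mutant, a log2 ratio of -6.65, and miR-37-5p had 230 and 6, a log2 ratio of -6.61. miR-36-5p had 30 reads in WT, 26 in ALG-1/OE, 13 in ctrl and 0 in glp-1(e2144). With 0 reads taken as up to 3, its share was at least 25.4-fold lower in the mutant. miR-41-3p had 23 reads in WT and 2 in the mutant, a log2 ratio of -4.87 (-7.999 to -2.853), so it was not separable from the strands above. miR-42-5p, from the separate locus, had 30 reads in WT, 28 in ALG-1/OE and 26 in ctrl, against 7 in the mutant, a log2 ratio of -3.45 (-4.88 to -2.23), whose interval lay above those of the abundant 3p strands of the cluster. The 5 strands that were not counted had between 2 and 14 reads in WT and at most 1 in glp-1(e2144).

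**Figure D2:**
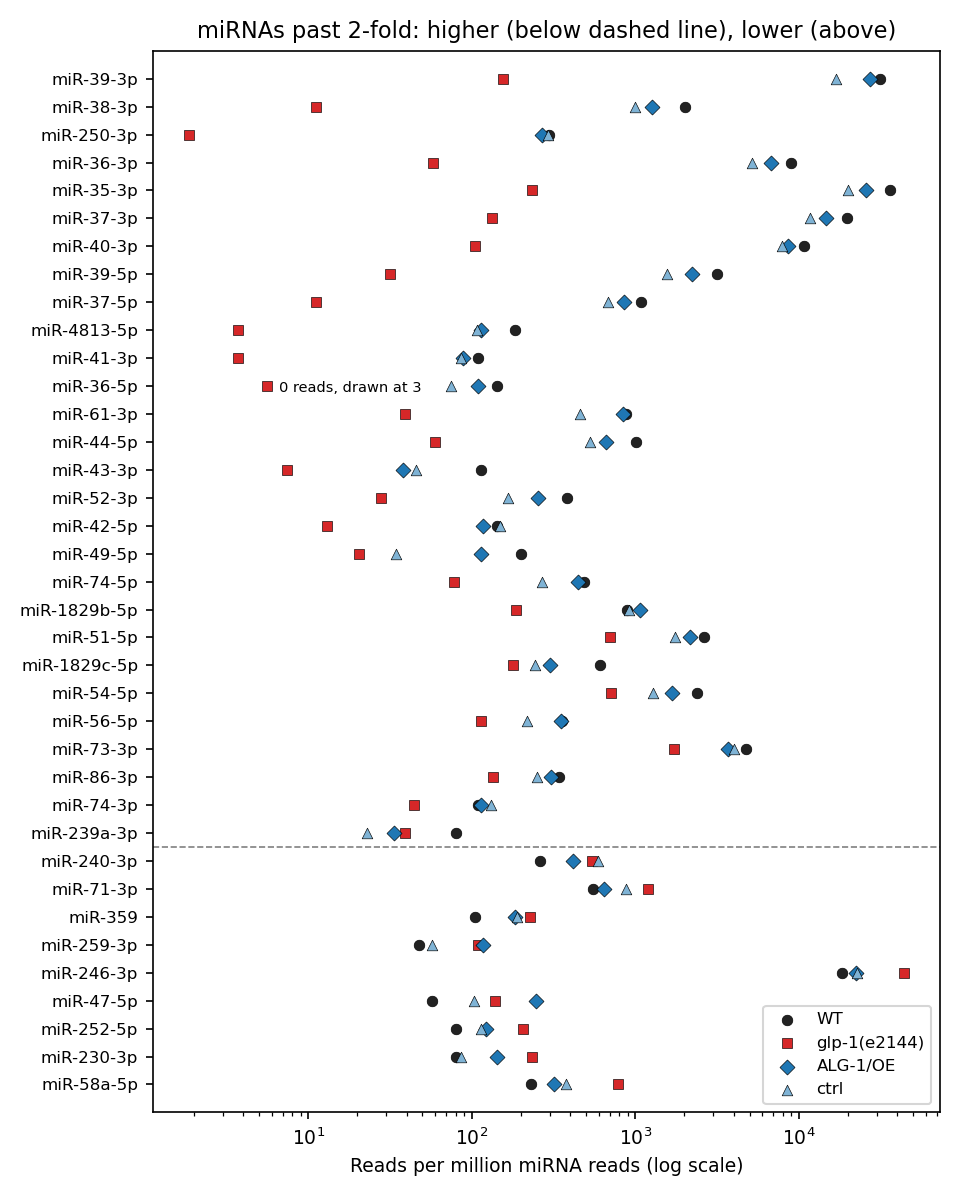
Share of the 37 strands past 2-fold in each of the 4 libraries, in RPM on a log scale, ordered by the ratio of glp-1(e2144) to WT, with the 28 lower strands above the dashed line and the 9 higher strands below it. For 27 of the 28 lower strands the red square of glp-1(e2144) is the leftmost point, whereas among the 9 higher strands it is the rightmost point for 6.

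Outside the miR-35 family, the cluster with the largest deficit was mir-250 with mir-61, on the minus strand of chromosome V at 11769917-11770156, in intergenic sequence. mir-61 is known as a gene that the Notch receptor LIN-12 switches on in vulval precursor cells. Together they had 282 reads in WT, 293 in ALG-1/OE and 155 in ctrl, against 24 in glp-1(e2144), although that library was the deepest. The share of the pair was 0.134% in WT and 0.004% in the mutant, a log2 ratio of -4.90 (-5.57 to -4.30). miR-61-3p stood at 881 RPM in WT, 844 in ALG-1/OE, 457 in ctrl and 39.1 in glp-1(e2144), a log2 ratio of -4.49 (-5.22 to -3.84). miR-250-3p had 63 reads in WT, 64 in ALG-1/OE and 51 in ctrl, against 1 in the mutant, so its log2 ratio of -7.32 is held only loosely (-12.65 to -4.79). Their uncounted partners were low too, with 17 reads of miR-61-5p in WT against 2, and 16 of miR-250-5p against 0.

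Within the mir-42, mir-43 and mir-44 cluster (II, plus strand, 11889811-11890118), the strands parted. miR-43-3p, which shares its seed with miR-2 and miR-250, had 24 reads in WT, 9 in ALG-1/OE and 8 in ctrl, against 4 in glp-1(e2144), a log2 ratio of -3.93 (-5.92 to -2.39). miR-44-5p stood at 1018 RPM in WT, 663 in ALG-1/OE, 531 in ctrl and 59.6 in the mutant, a log2 ratio of -4.09 (-4.68 to -3.55). The other arm of the same hairpin did not follow: miR-44-3p stood at 450 in WT, 344 in ALG-1/OE, 280 in ctrl and 473 in the mutant, a log2 ratio of 0.07 (-0.27 to 0.43). miR-44-3p and miR-45-3p are known to be identical in sequence, so the reads of either may come from mir-45, a hairpin elsewhere on chromosome II, and the split between the copies is uncertain. miR-45-3p had a log2 ratio of 0.04 (-0.27 to 0.37), while miR-45-5p had 44 reads in WT and 159 in the mutant, a log2 ratio of 0.51 (0.02 to 1.02).

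miR-4813-5p (III, 4571648-4571671, plus strand) had the largest deficit after miR-250-3p among counted strands outside the family, 49.6-fold, with 39 reads in WT, 27 in ALG-1/OE, 19 in ctrl and 2 in glp-1(e2144), a log2 ratio of -5.63 (-8.73 to -3.68). Its hairpin overlaps an exon of idhg-1 on the same strand, and reads of the hairpin and of that messenger RNA cannot be told apart in these counts. On the X chromosome, miR-1829b-5p, from an intron of F20D1.3, stood at 886 RPM in WT, 1066 in ALG-1/OE, 914 in ctrl and 186 in the mutant. miR-1829c-5p, from an intron of piki-1, stood at 606, 302, 246 and 179 in the same order, so that WT was the high library and the mutant lay close to ctrl. The log2 ratios of the pair were -2.25 and -1.76.

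The mir-73, mir-74 and mir-75 cluster (X, plus strand, 2368765-2372549) held 0.560% of miRNA reads in WT, 0.436% in ALG-1/OE and 0.474% in ctrl, against 0.223% in glp-1(e2144), a log2 ratio of -1.33. Its hairpins differed among themselves. miR-73-3p stood at 4784 RPM in WT and 1732 in the mutant, a log2 ratio of -1.47 (-1.60 to -1.34). miR-74-5p was lower by more, from 488 to 78.2, a log2 ratio of -2.64 (-3.19 to -2.11). miR-75-3p went the other way, with 175 RPM in WT, 113 in ALG-1/OE, 308 in ctrl and 350 in the mutant. Its ratio of 1.998 put it just outside the call, and miR-240-3p, at 2.09, was just inside. Among lower strands miR-239a-3p was just inside at 2.06-fold and miR-49-3p just outside at 1.92-fold.

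The miR-51 family, known to act redundantly in embryonic development, was split by hairpin and by strand. As a whole it held 1.97% of miRNA reads in WT, 1.97% in ALG-1/OE and 2.24% in ctrl, against 1.42% in the mutant, a log2 ratio of -0.47. Of 9 counted strands, 4 were lower and 0 higher, beside 13.8% and 7.32% of the 123 outside the miR-35 family, with log2 ratios from -3.78 to 0.12. miR-51-5p, the most affected of the principal strands, stood at 2652 RPM in WT, 2171 in ALG-1/OE, 1748 in ctrl and 700 in glp-1(e2144), a log2 ratio of -1.92 (-2.11 to -1.73). Its neighbour miR-53-5p, at 583 in WT and 533 in the mutant, lay at -0.13 (-0.44 to 0.19), and miR-52-5p at -0.33 (-0.44 to -0.23). The 3 other lower strands, miR-52-3p, miR-54-5p and miR-56-5p, are the scarcer arm of their hairpins over ALG-1/OE and ctrl together, although the arms of mir-56 were nearly even. The other arms miR-54-3p and miR-56-3p had log2 ratios of 0.05 and 0.12, which became negative when the miR-35 family was left out of the total.

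Among the higher strands, miR-58a-5p and miR-246-3p were those whose intervals lay wholly past 2-fold, although miR-246-3p was only the fifth by ratio. mir-246 (IV, 10940134-10940230, plus strand, intergenic) has been tied to lifespan, its expression rising with age in worms that go on to live long. miR-246-3p took 18443 RPM in WT, 22370 in ALG-1/OE, 22862 in ctrl and 43991 in glp-1(e2144). The 3 other libraries lay together and the mutant lay apart, with a log2 ratio to WT of 1.25 (1.21 to 1.30). The other arm, miR-246-5p, had 4 reads in WT, 7 in ALG-1/OE, 6 in ctrl and 34 in the mutant, a log2 ratio of 1.74 (0.25 to 3.70), although it was too scarce to be counted. miR-246-3p is annotated at 21 bases. Strands annotated at up to 21 bases made up 2.20% of reads in WT and 4.71% in the mutant, but 0.359% and 0.308% once miR-246-3p was set aside.

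miR-58a-5p is the scarcer strand of mir-58a (IV, 3233254-3233350, in an intron of Y67D8A.2 on the same strand), a member of the bantam family. It stood at 232 RPM in WT, 319 in ALG-1/OE, 377 in ctrl and 784 in glp-1(e2144), a log2 ratio of 1.76 (1.33 to 2.21). The abundant strand of that hairpin, miR-58a-3p, was nearly level, at 41830 in WT, 32674 in ALG-1/OE, 51609 in ctrl and 44676 in the mutant. Its log2 ratio was 0.09, or -0.08 with the miR-35 family left out of the total. The higher share was thus seen for the scarce arm alone.

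The other 7 higher strands were scarce or only slightly past 2-fold. miR-71-3p stood at 549 RPM in WT, 647 in ALG-1/OE, 874 in ctrl and 1194 in the mutant, a log2 ratio of 1.12 (0.83 to 1.42). mir-71, in an intron of ppfr-1 on chromosome I, is known to promote long life in worms without germ cells. Its principal strand miR-71-5p stood at 8743 in WT, 10064 in ALG-1/OE, 10334 in ctrl and 13203 in the mutant, a log2 ratio of 0.59 (0.52 to 0.67), above all 3 other libraries but within 2-fold. miR-252-5p (II, 11446918-11446940, minus strand) had 17 reads in WT, 29 in ALG-1/OE, 20 in ctrl and 110 in the mutant, a log2 ratio of 1.35 (0.60 to 2.18). miR-230-3p stood at 80.5 RPM in WT, 143 in ALG-1/OE, 85.7 in ctrl and 233 in the mutant, a log2 ratio of 1.53 (0.80 to 2.36). Its partner miR-230-5p, at 587 in WT and 788 in the mutant, was highest in ALG-1/OE with 1663. miR-359, miR-47-5p, miR-259-3p and miR-240-3p had 22, 12, 10 and 55 reads in WT.

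Lists of miRNAs with known roles were read against the shares of calls outside the miR-35 family, 7.32% higher and 13.8% lower of 123, as these lists hold none of its strands. Of the 12 counted strands of 7 hairpins tied to lifespan or stress (mir-71, mir-34, mir-228, mir-238, mir-239a, mir-239b and mir-246), 2 were higher and 1 lower, with a median log2 ratio of 0.29. miR-239b-5p stood at 2524 RPM in WT and 3881 in the mutant, above all 3 other libraries. miR-228-5p stood at 46339 in WT, 66641 in ALG-1/OE, 62686 in ctrl and 56442 in glp-1(e2144), inside their range. Of the 14 counted strands of the 8 hairpins that the study took forward to tests of stress resistance, 3 were higher and 0 lower, with a median of 0.42. The study picked these hairpins from miRNAs with a log2 fold change above 1 in both glp-1(e2144) and ALG-1/OE. It normalised by all reads of a sample, not by miRNA reads, so its calls and these rest on unlike totals. The study chose that list on these libraries, so the list is not independent evidence of a direction. Its most abundant member miR-235-3p, known for holding blast cells quiescent under starvation, stood at 19878 in WT, 26783 in ALG-1/OE, 17258 in ctrl and 31514 in the mutant, a log2 ratio of 0.66.

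**Figure D3:**
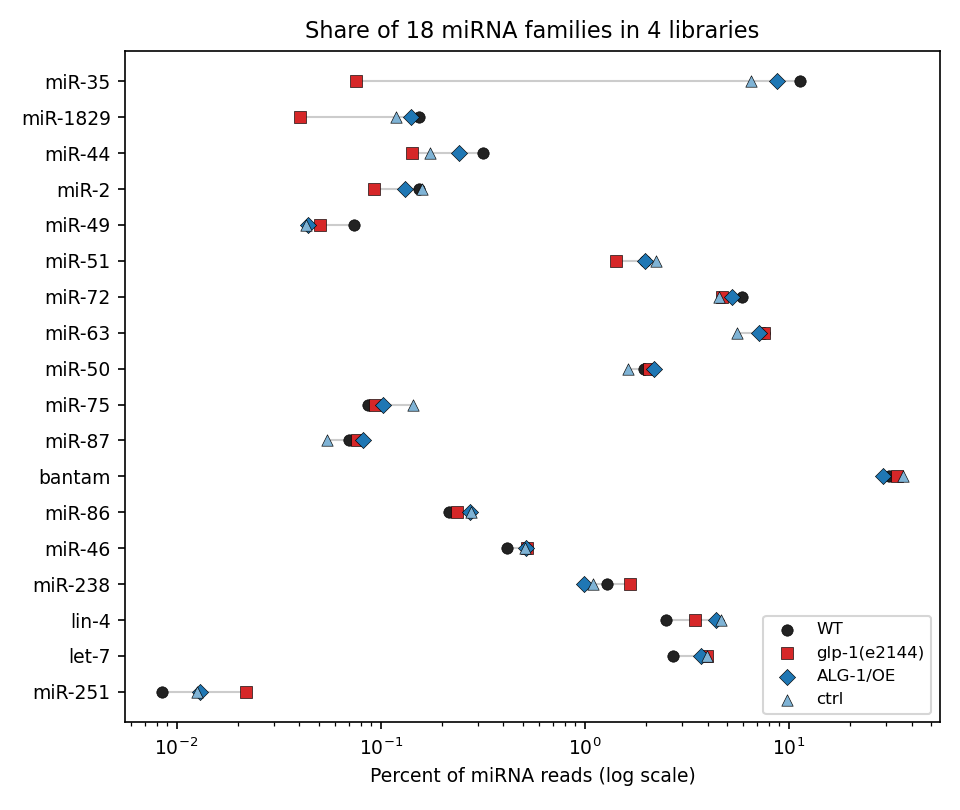
Share of miRNA reads held by 18 miRNA families (rows, ordered by the ratio of glp-1(e2144) to WT) in the 4 libraries, in percent on a log scale, with 1 symbol per library and a grey line over their range. The miR-35 family spans 0.076% in glp-1(e2144) to 11.3% in WT, and for let-7 and lin-4 the WT symbol lies furthest to the left.

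Summed by family over both arms of each hairpin, 3 of 18 families were lower (miR-35, miR-1829 and miR-44). The miR-251 family alone was higher, with 0.022% of reads in the mutant and 0.009% in WT, a log2 ratio of 1.37 (0.64 to 2.17). It had 18 reads in WT and 118 in the mutant, of which 17 and 110 were miR-252-5p, its only counted strand. The miR-44 sum includes miR-44-5p, with a log2 ratio of -4.09, and miR-61-3p, with -4.49. By contrast, miR-44-3p and miR-45-3p had ratios of 0.07 and 0.04. A sum over the strands with the shared seed alone was not made. The bantam family, the largest, held 31.0% of miRNA reads in WT, 29.1% in ALG-1/OE, 36.2% in ctrl and 33.8% in the mutant, a log2 ratio of 0.12 that turned negative with the miR-35 family left out of the total. Its leading strand miR-82-3p was level, at 158208 RPM in WT, 158667 in ALG-1/OE and 158871 in glp-1(e2144), and ctrl was the library apart at 205332. miR-57-5p, the next most abundant strand, stood at 134972 in WT and 151497 in the mutant.

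The let-7 family, which times late larval development, held 2.69% of reads in WT and 3.96% in glp-1(e2144), a log2 ratio of 0.56 (0.52 to 0.60). None of its 9 counted strands was called, beside 7.32% higher and 13.8% lower of the 123 outside the miR-35 family. Their log2 ratios ran from 0.38 to 0.87. ALG-1/OE held 3.71% and ctrl 3.95%, so the mutant stood level with ctrl and WT was the low library. The lin-4 family, mainly miR-237-5p, behaved likewise, at 2.498% in WT, 3.48% in the mutant, 4.39% in ALG-1/OE and 4.63% in ctrl. The sum of the miR-72 family, at 5.92% in WT, 4.68% in the mutant and 4.57% in ctrl, was again a case in which the mutant did not leave the range of the others. That sum was mostly miR-72-5p, with 24136 of the 25142 reads in the mutant. Of the family's 4 counted strands 3 were lower, beside 13.8% of the 123 outside the miR-35 family, with a median log2 ratio of -1.38 over the 4. The sum of the miR-238 family was highest in the mutant, at 1.67% against 1.29% in WT, 0.995% in ALG-1/OE and 1.09% in ctrl.

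Of 20 counted clusters of hairpins lying within 10 kb of each other, 6 were lower and 0 higher. Besides those of mir-35, mir-250, mir-42 and mir-73, these were mir-1829c with mir-4812 (log2 ratio -1.81) and mir-51 with mir-53 (-1.42). At 1.5-fold, 13 of the 20 would be past the threshold. The mir-229, mir-64, mir-65 and mir-66 cluster in an intron of gcn-1 had a log2 ratio of 0.00, and the mir-54 to mir-56 cluster one of -0.29. The largest positive ratios were 0.73 for mir-240 with mir-786 and 0.71 for mir-357 with mir-358.

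**Figure D4:**
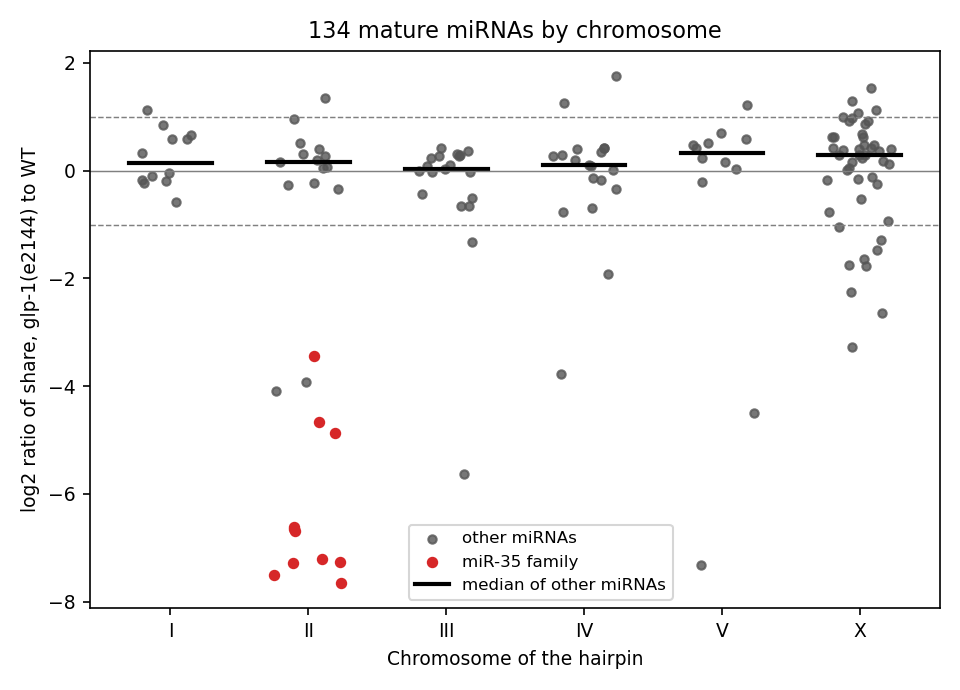
log2 ratio of share, glp-1(e2144) to WT, for the 134 counted strands by chromosome of the hairpin, with the miR-35 family in red, other miRNAs in grey, bars at the median of the other miRNAs and dashed lines at 2-fold. The family fills the lower end of chromosome II, and the medians of the other miRNAs lie between 0.02 on III and 0.33 on V.

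The X chromosome is largely silent in the germline, and its miRNAs were therefore compared with those of the autosomes. The X-linked hairpins held 28.1% of miRNA reads in WT and 30.6% in glp-1(e2144), a log2 ratio of 0.12 (0.11 to 0.14). This direction did not hold without the miR-35 family, when X held 31.7% in WT and 30.6% in the mutant, a log2 ratio of -0.05 (-0.06 to -0.04). With the family in the total, X held 30.5% in ALG-1/OE and 35.04% in ctrl, so the range over the 3 other libraries, set by ctrl, was wider than the difference between the mutant and WT. Without the family, X held 33.4% in ALG-1/OE and 37.5% in ctrl, so the mutant was then the lowest library, though close to WT. By strands, the median log2 ratio was 0.29 over the 46 counted on X and 0.10 over the 77 on autosomes outside the family. Of the X-linked strands 4 were higher and 9 lower, and of the autosomal ones 5 and 8, so X-linked strands were on both sides. Chromosome II held 33.4% of reads in WT and 23.2% in the mutant, with 27.7% in ALG-1/OE and 23.4% in ctrl. These shares include the miR-35 family, itself 11.3% of reads in WT, 0.076% in the mutant, 8.78% in ALG-1/OE and 6.51% in ctrl. The share of chromosome II without the family was not computed.

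Strand use was compared for the 133 hairpins with both arms annotated, with the minor arm named from ALG-1/OE and ctrl so that the compared pair did not choose it. Minor strands made up 1.94% of the reads of these hairpins in WT (4082 of 210441 reads), 1.83% in ALG-1/OE, 1.78% in ctrl and 1.33% in glp-1(e2144) (7089 of 534474 reads). Without the miR-35 family the values were 1.67%, 1.63%, 1.64% and 1.32%, so the mutant still stood below 3 libraries that were close to each other. However, 2 abundant minor strands carried most of this. miR-54-5p stood at 2382 RPM in WT, 1679 in ALG-1/OE, 1280 in ctrl and 711 in the mutant, and miR-229-3p at 2586, 2196, 1720 and 1643. With mir-54 and mir-229 also left out, a choice made after their values were seen, minor strands made up 1.13% in WT (1.08–1.18) and 1.11% in the mutant (1.08–1.14), a difference within counting error. ALG-1/OE stood at 1.24% (1.19–1.29) and ctrl at 1.35% (1.29–1.40), so the mutant was still below both of the 20 °C libraries.

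**Figure D5:**
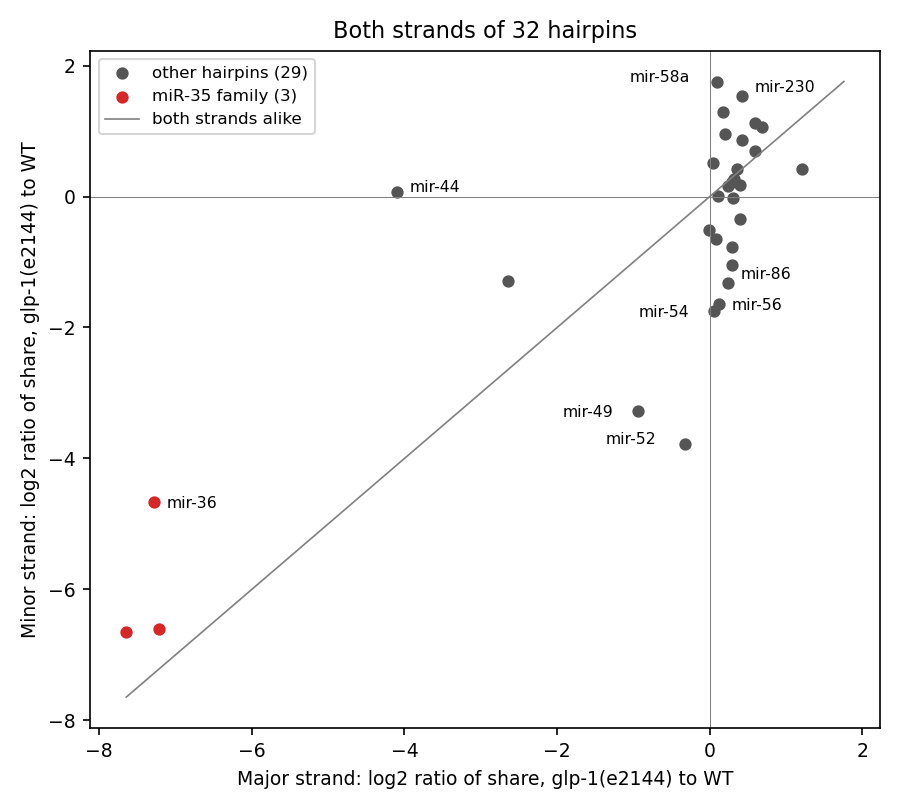
log2 ratio of share, glp-1(e2144) to WT, of the major strand (x axis) and the minor strand (y axis) of the 32 hairpins with both strands counted, with 3 hairpins of the miR-35 family in red and 29 others in grey, and a line where both strands have the same ratio. Most grey points lie close to 0 on the x axis and are spread along the y axis, and mir-44 lies far to the left with a minor strand near 0.

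The strands of a hairpin often parted in the mutant. Among 32 hairpins with both strands counted, the minor strand had the lower ratio in 17 and the higher in 15, and it departed from its major strand by 2-fold in 7 and 6 of them. Outside the miR-35 family, 8 of 30 counted minor strands were lower and 5 higher, against 9 and 3 of 84 major strands. Minor strands are scarcer, and the part of counting error in this was not tested. The largest shift was in mir-44, whose 3p strand was 30.6% of the hairpin's reads in WT, 34.2% in ALG-1/OE, 34.5% in ctrl and 88.8% in glp-1(e2144), with the uncertainty about mir-45 given above. The 5p strand of mir-56 was 47.5% in WT, 50.9% in ALG-1/OE, 34.9% in ctrl and 21.03% in the mutant, and the 3p strand of mir-52 was 6.80%, 3.98%, 2.21% and 0.66%. mir-230 went the other way, its 3p strand taking 12.1% in WT, 7.91% in ALG-1/OE, 7.32% in ctrl and 22.8% in the mutant. For mir-49 the 5p strand made up 49.4% in WT and 16.2% in the mutant, but 20.0% in ctrl, so the mutant lay near ctrl.

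Markers of other tissues were read for the make-up of the pools. miR-60, of the intestine, stood at 2894 RPM in WT, 2183 in ALG-1/OE, 2576 in ctrl and 3785 in glp-1(e2144). The muscle miRNA mir-1 had between 9 and 29 reads in each library, 56.8 RPM in WT and 54.0 in the mutant. In the pair these were mostly miR-1-5p, with 12 reads in WT and 27 in the mutant, while miR-1-3p had 0 and 2. The 4 neuronal hairpins mir-124, lsy-6, mir-790 and mir-791 together stood at 99.5 RPM in WT, 160 in ALG-1/OE, 97.1 in ctrl and 98.7 in the mutant, with miR-124-3p at 0 in all 4. These rest on 21 reads in WT and 53 in the mutant, and 0 of their strands were counted. The muscle and neuronal lists are thus too scarce to show whether those tissues were level. Of the intestinal, muscle and neuronal lists only the intestinal one was higher in the mutant, through miR-60-3p, as miR-60-5p had a log2 ratio of -0.35. The list of hypodermis and seam timing (lin-4, let-7, mir-48, mir-84 and mir-241) was higher too, at 26125 RPM in WT and 38480 in the mutant. It stood at 35592 in ALG-1/OE and 38212 in ctrl, so WT was the low library. The part of either list in the other ratios was not tested. lin-4-5p had 2 reads in WT and 12 in the mutant, and miR-241-5p had 0 in all libraries, so these abundant regulators of timing were barely recorded in any strain.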

How the data were processed

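Total RNA of whole worms was enriched for small RNA and sequenced. Per the study's methods and the labels, the authors removed adapters and reads shorter than 18 bases, aligned the rest to ce10 with Bowtie2, and deposited raw read counts for 250 hairpin and 447 mature miRNA rows per library, all at the WBcel235 coordinates of the annotation used here. They normalised by the total reads of each sample, which were not used here. The labels and the methods make CT20 the ALG-1/OE strain, although the series text calls it the control.

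For a name on several rows the row with most reads was kept (434 names). Counts were divided by the miRNA reads of the library. Intervals of shares are Clopper-Pearson, those of log2 ratios are exact conditional binomial, both at 95% and for counting error only, since reads are not independent molecules. A count of 0 was taken as up to 3 reads. No model was fitted with 1 library per strain, and edgeR gave only TMM factors. Antisense miRNAs with equal counts in all libraries (such as miR-786 and miR-8203) leave the strand of the reads uncertain.

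Named miRNAs were members of the listed families and lists, tissue markers, the 10 highest and 10 lowest ratios with at least 50 reads in the pair, all families and clusters with at least 1% of reads or among the 5 most extreme either way, and the 5 largest arm shifts. Others were named after their values were seen. Members and lists were chosen with earlier results of these data known. The alternatives tried were other totals, filters, cut-offs and namings of the minor arm. The interval calculation was tested on simulated data. Python 3.11.15, numpy 2.4.6, scipy 1.17.1, pandas 2.3.3, R 4.3.3 and edgeR 4.0.16 were used.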

Additional observations from a re-analysis of the deposited data

Results flagged for a closer look

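Hairpin rows were not used in any comparison. The mir-58a hairpin had 8 reads outside its annotated mature strands in glp-1(e2144) and 1 in WT, which is above the level that a count of 0 allows. The mutant library was the deeper of the pair, with 536907 miRNA reads against 211140.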

How the results depend on the processing

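With the miR-35 family left out of the total, the family's log2 ratio was -7.40, that of the minor strands -0.72, and the X-linked share reversed to -0.050, as it did when the family itself was left out. All these follow from the family's share of the WT total. TMM factors put the X-linked share at 0.077. Naming the minor arm on the compared pair gave -0.63, and leaving out the miR-35 family, mir-54 and mir-229, an alternative chosen after seeing the data, reversed the log2 ratio of minor strands as a share of all miRNA reads to 0.15. Without a filter on share, 19 strands were higher and 54 lower of 199, and at a mean of at least 500 RPM 3 and 13 of 70. A 1.5-fold cut-off gave 25 higher strands and 13 clusters. The other alternatives, median of ratios, rows of a name summed, a pseudocount, clusters joined at 1 kb or 50 kb and a minimum of 10 reads, kept every direction and moved no count by over 1.5 times. Depth limits the scarce strands most, as ratios resting on under 30 WT reads span several fold. No paired analysis was possible because each strain had 1 library. The planned grouping by a shorter seed was not run, as no sequences were used.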
